A study of Mus musculus with 8 samples.

Results

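Plasma miRNAs of mice given imatinib were set against those of mice given doxorubicin, with no control in the test. The comparison took the 3 arrays titled for imatinib (IMB) plasma and the 3 titled for doxorubicin (DOX) plasma, 6 of the 8 arrays of the study. Members were the mouse miRNAs that the scanner software called detected on every array of at least 1 drug, 326 of the 1881 mouse miRNAs on the array. The question was which of them separate the drugs in every pool.

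All animals were female NMRI mice aged 3 months. Imatinib was given by mouth, 100 mg/kg a day over 9 days. Doxorubicin was injected intravenously every other day, 4 times 3 mg/kg. The RNA of an array came from 300 µl of pooled plasma with 3 mice to a pool, so that each drug was represented by 9 mice in 3 pools, which the labels call biological replicates. The remaining 2 arrays held solvent-treated pools (CTRL), whose values are given beside the leading miRNAs for reference. Drug, route, solvent and number of doses differ together between the groups and cannot be told apart.

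Imatinib inhibits the ABL, KIT and PDGF receptor tyrosine kinases, and doxorubicin is an anthracycline that damages DNA through topoisomerase II. A miRNA is a short RNA that guides Argonaute proteins to messenger RNAs, mostly through its seed, the stretch near the 5′ end that pairs with the target. Plasma carries miRNAs from blood cells, vessel walls and organs in vesicles and protein complexes. In plasma, a change in the number of source cells and a change in the RNA that each releases cannot be told apart.

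The sequences of the miRNAs on which the comparison turns are shown first, as RefSeq mature sequences of the mouse build GRCm38.p6, 5′ to 3′, with the seed (bases 2 to 8) in capitals. RefSeq held a mature sequence for 280 of the 326 tested names. The first set holds the 3 miRNAs past the threshold of the test, then both miRNAs that lay just outside it.
miR-34a-5p: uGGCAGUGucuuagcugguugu
miR-144-3p: uACAGUAUagaugauguacu
miR-5132-5p: gCGUGGGGugguggacucagg
miR-205-5p: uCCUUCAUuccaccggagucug
miR-7058-5p: uAGAGGGGaggugaccguggaagu
These 5 seeds all differ. The mature miR-34a-5p lies on chromosome 4 at 150068473 to 150068494 on the plus strand, and miR-144-3p on chromosome 11 at 78073047 to 78073066 on the plus strand. On the minus strand, miR-5132-5p lies on chromosome X at 74023571 to 74023591, miR-205-5p on chromosome 1 at 193507503 to 193507524, and miR-7058-5p on chromosome 7 at 126368013 to 126368036.

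The second set holds miRNAs that share a seed or a hairpin cluster and lay on the same side in the comparison. It shows the partner of miR-144-3p in its locus, then the miR-15/16 seed, both seeds of the miR-200 family and the miR-27 seed.
miR-451a: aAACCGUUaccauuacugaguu
miR-15a-5p: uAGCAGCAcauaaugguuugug
miR-15b-5p: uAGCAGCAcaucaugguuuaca
miR-16-5p: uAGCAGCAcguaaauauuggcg
miR-200b-3p: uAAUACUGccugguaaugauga
miR-429-3p: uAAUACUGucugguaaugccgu
miR-200a-3p: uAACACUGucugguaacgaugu
miR-141-3p: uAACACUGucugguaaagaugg
miR-27a-3p: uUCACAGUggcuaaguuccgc
miR-27b-3p: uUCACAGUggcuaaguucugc
MiR-200b-3p and miR-429-3p have one seed and miR-200a-3p and miR-141-3p the other. MiRNAs with the same capitals differ after the seed, as in miR-27a-3p and miR-27b-3p.

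Signals below are Agilent's total signal per miRNA, scaled between arrays to a common 75th percentile and given on the log2 scale with a floor of 0.84. A difference is the mean of the imatinib pools minus that of the doxorubicin pools. The software called 329, 409 and 367 mouse miRNAs detected on the imatinib arrays and 318, 337 and 329 on the doxorubicin arrays. The difference of 40.3 miRNAs did not pass an exact 2-sided permutation test (p = 0.3, with 0.1 the smallest that 3 against 3 pools allow), and it was 20 without imatinib pool 2. Before scaling, the 75th percentile was 59.3, 166 and 96.7 on the imatinib arrays and 62.2, 80.6 and 73.7 on the doxorubicin arrays.

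Imatinib pool 1 stood apart from the other imatinib pools. Over the 296 miRNAs detected on all 6 arrays, its median absolute log2 difference was 0.42 to imatinib pool 2 and 0.46 to imatinib pool 3, against 0.18 between pools 2 and 3. Doxorubicin pools differed from each other by 0.19 to 0.22, and pools of different drugs by 0.26 to 0.38. The distances from imatinib pool 1 to its own group were larger than any distance between drugs. Imatinib pool 1 was also the only imatinib array in the first row of the slide, with doxorubicin pools 1 and 2. Imatinib pools 2 and 3 lay in the second row with doxorubicin pool 3. Pool and slide row cannot be told apart here, and a difference within a row rests on a single array of 1 drug. The counts of calls and of miRNAs without overlap, and some single miRNAs, are therefore also given without imatinib pool 1.

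With limma's moderated test on the 6 arrays and Benjamini-Hochberg adjustment over 326 miRNAs, 3 miRNAs passed an adjusted p of 0.05, which is 0.92% of those tested. Imatinib plasma was higher in 2 of them (0.613%), miR-144-3p and miR-5132-5p, and lower in 1 (0.307%), miR-34a-5p. MiR-5132-5p entered the test only through the imatinib arrays, where it was high, so its call was partly set by the filter. Among the 296 miRNAs detected on all 6 arrays, 2 were called (0.676%), 1 in each direction (0.338% each), and a fit on those alone called the same 2. At an unadjusted p under 0.05 there were 39 (12% of those tested), 26 higher (7.98%) and 13 lower (3.99%). Without imatinib pool 1 the calls numbered 24 of 365 tested miRNAs, 21 higher and 3 lower, with miR-34a-5p, miR-144-3p and miR-5132-5p among them. More miRNAs were tested because the imatinib side of the filter then needed only imatinib pools 2 and 3. In that fit 101 of the 365 had an unadjusted p under 0.05.

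The pools of the drugs did not overlap for 63 of the 326 miRNAs (19.3%), of which 35 were higher in every imatinib pool (10.7%) and 28 lower (8.59%). Among the 296 miRNAs detected on all 6 arrays there were 52 (17.6%), with 26 in each direction (8.78% each). The other 11 of the 63, 9 higher and 2 lower, were not detected on all arrays of the lower drug. The margin between the nearest pools of the drugs was small in most: its median was 0.10 on the log2 scale, and it exceeded 0.5 in 4 of the 52. The difference in means was under 0.25 in 12 of the 52.

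The split of higher and lower miRNAs depended on the scaling. Without scaling, 38 were higher and 2 lower, and scaling to miR-23a-3p with miR-24-3p gave 102 higher and 2 lower. Scaling to the 75th percentile of all mouse miRNAs gave 55 higher and 9 lower, normexp background correction 18 higher and 33 lower, and median scaling 41 higher and 22 lower. These scalings moved the median difference of all tested miRNAs from -0.04 to 0.41, 0.37 and 0.16 for the first 3. Leaving out a pool gave between 68 and 191 miRNAs without overlap, with 191 of 365 without imatinib pool 1, 108 of 335 without imatinib pool 3 and 98 of 336 without doxorubicin pool 1. With 2 pools against 3, fewer values have to separate.

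In 10 other settings of the signal, scaling and floor, 9 of the 63 miRNAs separated the drugs every time. Imatinib plasma was higher in 7 of these (miR-144-3p, miR-106b-5p, miR-15a-5p, miR-15b-5p, miR-25-3p, miR-6354 and miR-7058-5p) and lower in 2 (miR-34a-5p and miR-205-5p). This set was chosen after the values were seen and was not tested. Of the higher ones, miR-144-3p, miR-25-3p, miR-15b-5p and miR-106b-5p, are on the list of red cell miRNAs described later.

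**Figure D1:**
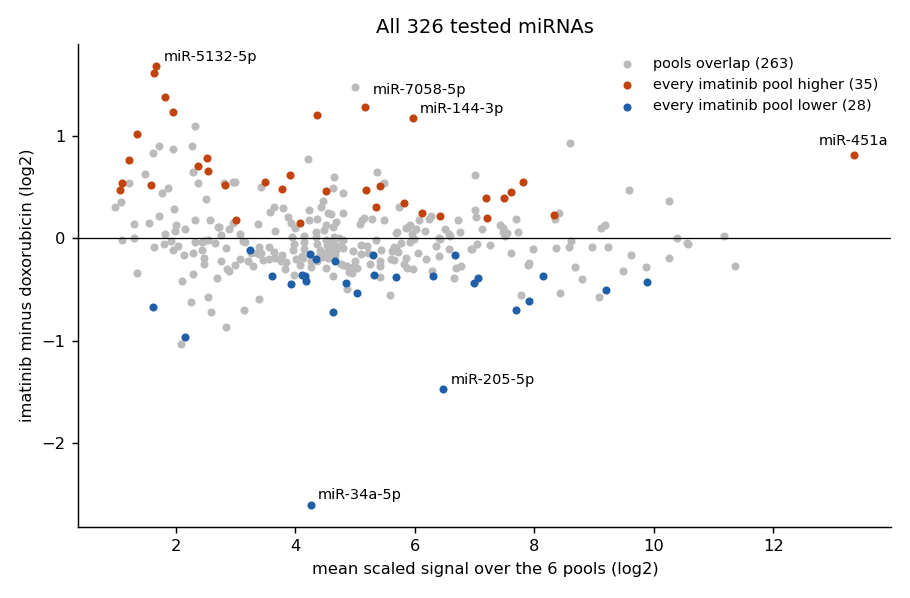
Difference between imatinib and doxorubicin plasma (log2) against mean scaled signal over the 6 pools (log2), 1 point for each of the 326 tested miRNAs. Orange points are the 35 miRNAs higher in every imatinib pool, blue points the 28 lower in every imatinib pool, and grey points those whose pools overlap; without scaling the split was 38 higher and 2 lower.

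The largest difference among miRNAs detected on all 6 arrays was that of miR-34a-5p, a direct transcriptional target of p53 that limits cell cycle progression. Its signal was 3.46, 2.65 and 2.79 in the imatinib pools and 5.32, 5.45 and 5.91 in the doxorubicin pools. Every doxorubicin pool lay above every imatinib pool, with 1.87 log2 units between the nearest pools. The difference was -2.60 (SE 0.27, 95% interval -3.23 to -1.96), or 6.06-fold lower in imatinib plasma (limma, adjusted p = 0.0043).

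The solvent pools held miR-34a-5p at 3.03 and 2.84, within the range of the imatinib pools and below all doxorubicin pools. The difference was -1.93 between imatinib pool 1 and doxorubicin pools 1 and 2 in the first row of the slide. It was -3.19 between imatinib pools 2 and 3 and doxorubicin pool 3 in the second. It kept its sign in all 23 alternatives, from -2.80 to -1.07, and passed the threshold in 22. The exception was the fit with no detection filter, over 1881 miRNAs (limma, adjusted p = 0.41). Of its 2 probes, 1 was above background on all 6 arrays. The other arm of the hairpin, miR-34a-3p, was detected on 0 of the 6 arrays.

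MiR-34a-5p was the only called member of the list of p53-responsive miRNAs, of which 6 of 10 were tested. Over all tested miRNAs 0.92% were called. The other 4 members of the miR-34 family on that list, both arms of miR-34b and of miR-34c, were not among the tested miRNAs. Of the other tested members, miR-192-5p differed by -0.26, miR-215-5p by -0.10, miR-194-5p by 0.18, miR-107-3p by 0.18 and miR-145a-5p by -0.14, all with overlapping pools. The median of the 6 was -0.12, against -0.04 over all tested miRNAs, and it turned to 0.33 without scaling, 0.29 with scaling to miR-23a-3p with miR-24-3p, and 0.08 with the percentile over all mouse miRNAs, and to 0.00 without doxorubicin pool 3.

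MiR-144-3p, made with miR-451a from an erythroid locus driven by GATA1, had a signal of 6.59, 6.50 and 6.56 in the imatinib pools and 5.44, 5.20 and 5.50 in the doxorubicin pools. The groups were 1.003 log2 units apart at their nearest pools. The difference was 1.17 (SE 0.16, 95% interval 0.80 to 1.54), or 2.25-fold higher in imatinib plasma (limma, adjusted p = 0.0147).

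The solvent pools lay between the drugs, at 5.90 and 5.67. The difference was 1.27 in the first row of the slide and 1.03 in the second, and both probes of the miRNA gave nearly the same value, 1.05 and 1.06. The direction held in all 23 alternatives, from 0.77 to 1.62, several of which left the difference unchanged, as for miR-34a-5p. The call held in 16. Leaving out any of imatinib pools 2 and 3 and doxorubicin pools 1, 2 and 3 ended it, with an adjusted p in limma between 0.051 and 0.106 and differences from 1.08 to 1.25. It was also lost without scaling (adjusted p = 0.105) and with no detection filter (adjusted p = 0.166).

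MiR-5132-5p, a miRNA with no function named here, was detected on every imatinib array and on no doxorubicin array. Its signal was 2.42, 2.54 and 2.60 in the imatinib pools, and every doxorubicin pool lay at the floor of 0.84. Imatinib plasma was 3.12-fold higher when each doxorubicin array was given the floor or its lowest signal of a detected miRNA, whichever is higher. This ratio is no lower bound. On the log2 scale the difference was 1.68, but 1.02 with background-subtracted spot signals and 1.17 with quantile normalization. The test gave an adjusted p of 0.0025 in limma, but the 3 doxorubicin values are ties at the floor with no spread of their own, and the miRNA was tested because it was detected in imatinib plasma. This p is therefore no independent support for the difference.

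The solvent pools held miR-5132-5p at 2.28 and 2.44, below the lowest imatinib pool or inside the imatinib range. With normexp-corrected spot signals and an offset of 50 the difference was 0.09 (limma, adjusted p = 0.83), and with a floor 4 times higher all pools tied. In the remaining 20 of 22 alternatives the call held. None of its 2 probes was above background on all 6 arrays. Its neighbour miR-718, 286 bases away on chromosome X, differed by 0.00.

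**Figure D2:**
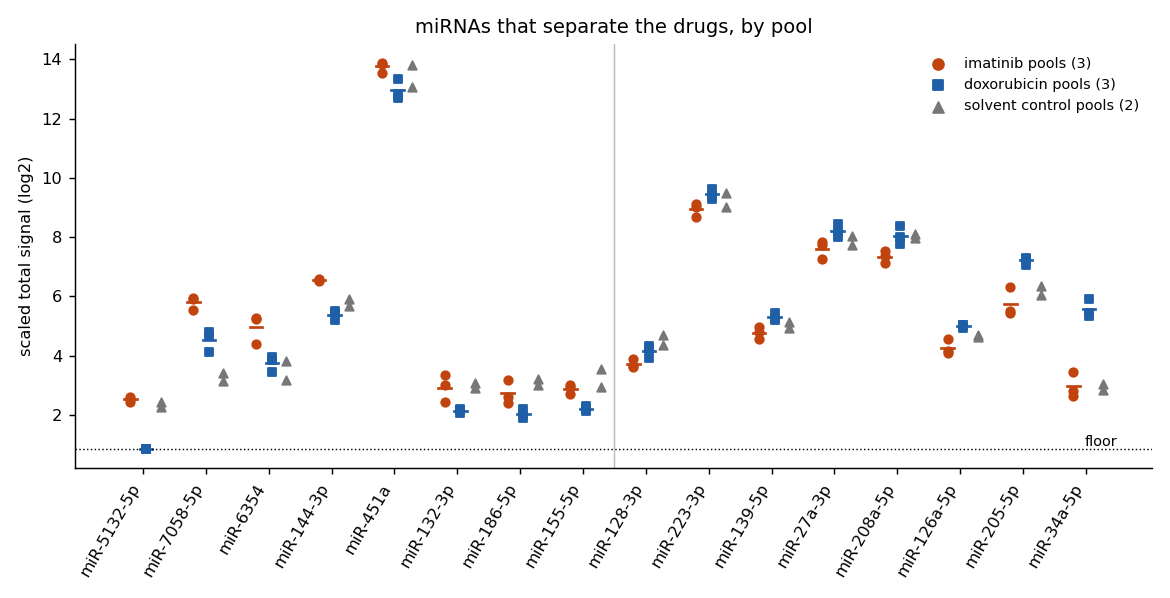
Scaled total signal (log2) in each pool for the 8 largest differences in each direction among miRNAs past the threshold or separating the drugs with detection on all 6 arrays. Circles are imatinib pools, squares doxorubicin pools and triangles solvent pools; short lines are group means and the dotted line is the floor of 0.84. The doxorubicin pools of miR-34a-5p lie at 5.32 to 5.91, above the 3.03 and 2.84 of the solvent pools.

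Both miRNAs just outside the threshold separated the drugs. MiR-205-5p, a miRNA of squamous and basal epithelia, had a signal of 6.30, 5.42 and 5.49 in the imatinib pools and 7.31, 7.07 and 7.25 in the doxorubicin pools. The nearest pools were 0.77 apart, and imatinib pool 1 was the highest of its group. The difference was -1.47 (SE 0.26; limma, adjusted p = 0.057), with solvent pools at 6.34 and 6.06.

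The value for miR-205-5p was -0.89 in the first row of the slide and -1.79 in the second. It kept its sign in 23 of 23 alternatives, from -1.71 to -1.02, several of which left the difference unchanged. It passed the threshold in 11 of the 23. Both of its probes separated the drugs, with differences of -1.60 and -1.58.

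MiR-7058-5p, again with no function named here, had a signal of 5.55, 5.96 and 5.92 in the imatinib pools and 4.12, 4.80 and 4.67 in the doxorubicin pools. Its difference was 1.28 (SE 0.23; limma, adjusted p = 0.057), and it passed in 8 of 23 alternatives. Both solvent pools, at 3.41 and 3.14, lay below every pool of either drug. MiR-205-5p and miR-7058-5p each passed when imatinib pool 1 was left out (limma, adjusted p = 0.0057 and 0.041). Each passed in only 1 of the 6 fits with a pool left out, with an adjusted p in limma of up to 0.23 in the others.

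**Figure D3:**
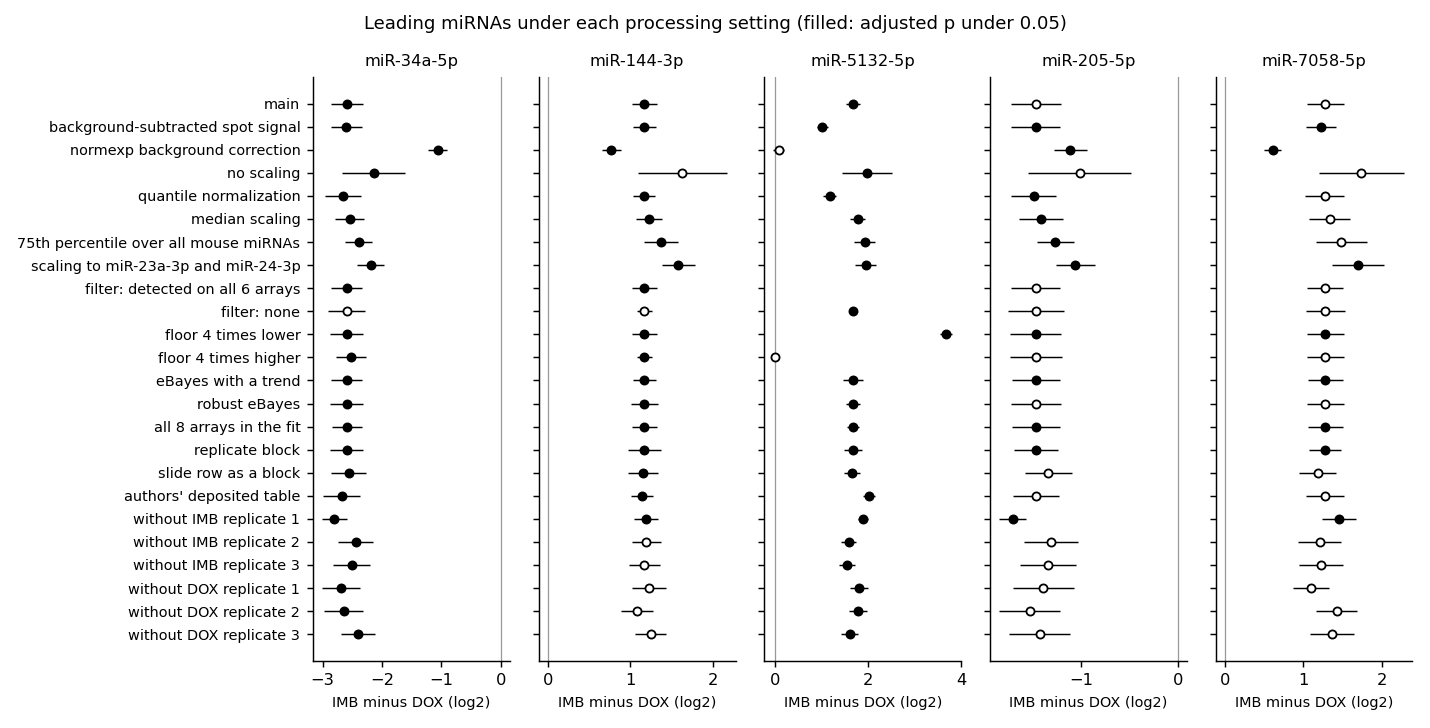
Difference between imatinib (IMB) and doxorubicin (DOX) plasma (log2, bars are standard errors, axes differ between panels) for 5 miRNAs under the processing of the report (main) and each alternative; filled points have an adjusted p under 0.05 in limma. The differences of miR-34a-5p lie between -2.80 and -1.07, and those of miR-5132-5p between 0.00 and 3.68.

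Detection on all 3 imatinib arrays and no doxorubicin array was found for 6 miRNAs, and the reverse for 0. Besides miR-5132-5p, and against the same reference level, imatinib plasma was 2.98-fold higher for miR-486a-3p, 1.97-fold for miR-486b-3p, 1.65-fold for miR-455-3p and 1.42-fold for miR-150-3p. None of these ratios is a lower bound. Over the alternatives the smallest log2 difference was 0.08 for miR-486a-3p and 0 for miR-486b-3p, miR-455-3p and miR-150-3p. All 4 are weak signals: miR-486a-3p, the passenger arm of the erythroid miR-486 hairpin, was at 2.53, 3.09 and 1.74 in the imatinib pools. None of the 4 passed the threshold (limma, adjusted p = 0.091, 0.177, 0.182 and 0.229), and the fifth, miR-546, reached the floor in imatinib pool 3. All 6 were also detected on both solvent arrays. More miRNAs were detected on imatinib arrays, as given above; the part of detection in this pattern was not tested.

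The red cell list holds miRNAs abundant in erythrocytes, among them miR-451a, miR-144-3p and miR-486a-5p. All 8 tested members were higher in imatinib plasma on average, 5 of the 8 in every pool, where 10.7% of all tested miRNAs were higher in every pool. Of the 8, only miR-144-3p passed the threshold, which 0.92% of all tested miRNAs did. The median difference was 0.51, against -0.04 for all tested miRNAs. It stayed above that of all tested miRNAs in 23 of 23 alternatives, by 0.39 to 0.68 against 0.56 in the processing of the report. A change of scale moves both medians nearly alike, so this count is no check of the scaling.

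MiR-451a, a miRNA of red cell maturation that is processed by Argonaute 2 and not by Dicer, had the highest signal on each of the 6 arrays. Its signal was 13.86, 13.87 and 13.56 in the imatinib pools and 13.34, 12.69 and 12.83 in the doxorubicin pools. The groups were 0.21 apart at the nearest pools, and doxorubicin pool 1 was the highest of its group. The difference of 0.81 (SE 0.22) did not pass the threshold (limma, adjusted p = 0.18). The solvent pools, at 13.81 and 13.06, lay in the range of the imatinib and of the doxorubicin pools.

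MiR-486a-5p, another erythroid miRNA, had a signal of 9.33, 9.24 and 8.60 in the imatinib pools and 8.75, 7.90 and 7.73 in the doxorubicin pools. The lowest imatinib pool lay below the highest doxorubicin pool. The difference was 0.93 (SE 0.33; limma, adjusted p = 0.35). The other members differed by 0.55 (miR-25-3p), 0.47 (miR-16-5p), 0.45 (miR-106b-5p), 0.39 (miR-15b-5p) and 0.19 (miR-92a-3p). Of these, miR-16-5p and miR-92a-3p overlapped between the drugs.

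The red cell index, the log2 signal of miR-451a minus that of miR-23a-3p, is used for the share of red cell RNA in plasma. It was 3.91, 4.45 and 3.90 in the imatinib pools and 3.15, 2.68 and 2.73 in the doxorubicin pools. Every imatinib pool was above every doxorubicin pool, with means of 4.09 ± 0.32 and 2.85 ± 0.26 (SD, n = 3 each). The difference of 1.23 had p = 0.1 in an exact 2-sided permutation test, the smallest that 3 against 3 pools allow. The solvent pools were at 3.84 and 3.18, between the drugs.

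Both terms of the index moved: miR-451a was higher by 0.81 and miR-23a-3p lower by 0.42 in imatinib plasma. With quantile normalization the difference in the index was 0.32, and it was 0.30 with the log2 values of the authors' deposited table. In both, miR-451a, the top miRNA of every array, has the same value on all of them, and its difference is 0. The summed linear signal of the red cell list was 14126 to 17957 in the imatinib pools and 8179.9 to 12533 in the doxorubicin pools, without overlap, and 10612 to 17361 in the solvent pools. Most of this sum is miR-451a, at 12.69 to 13.87 (log2) in the drug pools, where no other member exceeded 10.04. The sum is thus no separate evidence for the list. Of the 10 listed miRNAs on the array, 8 were detected on any drug array, and miR-144-5p was detected on 0. The part of red cell RNA in the other differences was not tested.

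**Figure D4:**
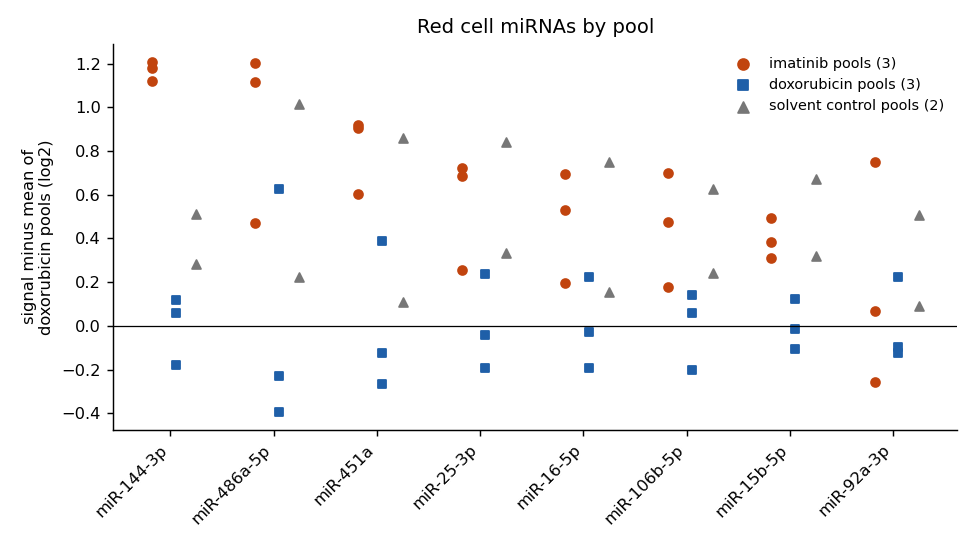
Signal of the 8 tested red cell miRNAs in each pool, as the log2 difference from the mean of the doxorubicin pools. Circles are imatinib pools, squares doxorubicin pools and triangles solvent pools. All 3 imatinib pools lie above all 3 doxorubicin pools for miR-144-3p, miR-451a, miR-25-3p, miR-106b-5p and miR-15b-5p, and the groups overlap for miR-486a-5p, miR-16-5p and miR-92a-3p.

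In 4 hairpin clusters that hold red cell miRNAs, the tested members lay on the same side. MiR-144-3p and miR-451a start 139 bases apart on chromosome 11. On chromosome 5, miR-25-3p, miR-93-5p and miR-106b-5p, a paralogue of the miR-17 cluster that promotes proliferation, differed by 0.55, 0.62 and 0.45, and miR-93-5p overlapped between the drugs. The pairs of miR-15a-5p with miR-16-5p on chromosome 14 and of miR-15b-5p with miR-16-5p on chromosome 3 differed by 0.39, 0.39 and 0.47, with the array giving a single value for miR-16-5p from both loci. The clusters of miR-92a-3p held both signs, with miR-19b-3p at -0.11.

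MiR-15a-5p, which restrains the cell cycle and BCL2, separated the drugs. It was at 7.51, 7.37 and 7.30 in the imatinib pools and 7.04, 6.84 and 7.11 in the doxorubicin pools. Not every miRNA with its seed did so. Among the 6 tested, miR-195a-5p differed by -0.09 and miR-497a-5p by -0.27, and the median was 0.39. The 10 tested members of the miR-17 clusters had a median of 0.23, with 8 above 0 and 2 below, and miR-18a-5p and miR-19b-3p were the ones below. Neither median changed sign in any of 23 alternatives, several of which left the differences unchanged.

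The epithelial list holds miR-205-5p, miR-203-3p and the miR-200 family, which keeps epithelial cells from mesenchymal change by repressing ZEB1 and ZEB2. All 7 members were tested, 7 were lower in imatinib plasma on average and 3 in every pool (8.59% of all tested miRNAs were lower in every pool), with none past the threshold. The median was -0.36, but 0.09 without scaling and 0.05 with scaling to miR-23a-3p with miR-24-3p. Relative to the median of all tested miRNAs it stayed lower in 23 of 23 alternatives, by -0.48 to -0.17. A change of scale moves both medians nearly alike (-0.32 in the processing of the report, -0.32 without scaling). This count is therefore no check of the scaling.

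The chromosome 4 cluster of miR-429-3p, miR-200a-3p and miR-200b-3p spans 1769 bases between the outermost starts. Its members differed by -0.41, -0.36 and -0.34. MiR-429-3p was at 4.10, 3.89 and 3.95 in the imatinib pools and 4.19, 4.32 and 4.67 in the doxorubicin pools, with 0.08 between the nearest pools. MiR-141-3p, from the other miR-200 cluster, differed by -0.69, with imatinib pool 1 above doxorubicin pool 1, and its neighbour miR-200c-3p by -0.08. The summed linear signal of the list was 134 to 193 in the imatinib pools, 262 to 303 in the doxorubicin pools and 158 to 180 in the solvent pools.

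The endothelial list holds both arms of miR-126a, which supports VEGF signalling in vessels, with miR-221-3p and miR-222-3p. All 4 were lower in imatinib plasma on average, 2 of the 4 in every pool (8.59% of all tested), with a median of -0.45 that was 0.01 without scaling. MiR-126a-5p was at 4.16, 4.10 and 4.56 in the imatinib pools and 5.02, 4.94 and 5.02 in the doxorubicin pools, a difference of -0.72 (SE 0.18; limma, adjusted p = 0.16). The other arm, miR-126a-3p, differed by -0.53 and overlapped, since imatinib pool 3 at 8.71 lay within the doxorubicin range of 8.66 to 8.75. MiR-221-3p and miR-222-3p, which share a seed and a locus on chromosome X, differed by -0.36 and -0.28. The summed linear signal of the list was 277 to 481 with imatinib and 488 to 521 with doxorubicin.

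The miR-23/27/24 family, expressed in endothelium and blood cells, was also lower on average. All 5 members were below 0 and 3 were lower in every pool (8.59% of all tested), with a median of -0.40 that was 0.06 without scaling and 0.01 when miR-23a-3p and miR-24-3p, members of the family, set the scale. MiR-27a-3p was at 7.83, 7.25 and 7.73 in the imatinib pools and 7.99, 8.19 and 8.46 in the doxorubicin pools. It differed by -0.61 and miR-27b-3p, with which it shares a seed, by -0.37. These lie on chromosomes 8 and 13, and both separated the drugs. MiR-23a-3p was at 9.95, 9.42 and 9.66 in the imatinib pools and 10.19, 10.004 and 10.10 in the doxorubicin pools.

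All 3 members of the miR-29 family, which represses collagens, were lower on average, by -0.27 to -0.44, and 1 of the 3, miR-29c-3p, was lower in every pool (8.59% of all tested). Their median of -0.27 was 0.18 without scaling and 0.13 with scaling to miR-23a-3p with miR-24-3p. The let-7 family, regulators of differentiation, differed little: all 7 tested members lay above 0, from 0.05 to 0.31, and let-7d-5p was among the 2 that were higher in every pool (10.7% of all tested). Its median of 0.07 was -0.05 with the slide row as a block and -0.06 without imatinib pool 3. The miR-30 family had a median of -0.05, with 0 of 5 separating (19.3% of all tested). The sign of this median changed under 4 scalings and with the slide row as a block (0.02). It also changed without imatinib pool 2 (0.00), imatinib pool 3 (0.02) or doxorubicin pool 1 (0.04).

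Muscle miRNAs had the largest median of any list, 0.78, but it rested on imatinib pool 2. MiR-1a-3p, a miRNA of heart and skeletal muscle, was at 5.59, 7.74 and 3.90 in the imatinib pools and 5.80, 3.38 and 3.63 in the doxorubicin pools. Imatinib pool 2 was the highest and the drugs overlapped. MiR-133a-3p and miR-133b-3p, made from the same loci as miR-1 and its relatives, were also highest in that pool, at 6.41 and 7.33. Without it the median was -0.13. The summed linear signal of the list was 464 in imatinib pool 2, 37.6 to 127 in the other imatinib pools, 37.4 to 133 in the doxorubicin pools and 19.1 to 20.3 in the solvent pools.

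The heart hairpin miR-208a gave another pattern. MiR-208a-5p was at 7.12, 7.37 and 7.55 in the imatinib pools and 8.37, 7.75 and 8.02 in the doxorubicin pools. Its difference was -0.70 (SE 0.21, limma adjusted p = 0.26). The other arm, miR-208a-3p, was detected on 0 of the 6 arrays. Both solvent pools, at 7.97 and 8.09, lay in the doxorubicin range.

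Of the liver miRNAs, 0 of 6 tested members separated the drugs, where 19.3% of all tested miRNAs did, and the median was -0.08. It was above 0 with no scaling (0.38), under 2 other scalings (0.13 and 0.33), without imatinib pool 3 (0.05) and without doxorubicin pool 3 (0.03). MiR-122-5p, the main miRNA of hepatocytes, was at 9.97, 9.61 and 7.98 in the imatinib pools and 9.27, 9.50 and 9.03 in the doxorubicin pools. Imatinib pool 3 was the lowest, and the interval of the difference of -0.08 was wide (SE 0.49). The mesenchymal list of 6 miRNAs, with miR-143-3p and miR-199a-3p, had a median of -0.14 and 0 separating members, and this median was above 0 under the same settings of scale (0.31, 0.06 and 0.27), without imatinib pool 1 (0.14) and without doxorubicin pool 3 (0.03).

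Among white cell miRNAs the members went different ways. MiR-223-3p, a neutrophil miRNA also found in platelets, was at 9.13, 8.69 and 9.00 with imatinib and 9.43, 9.29 and 9.62 with doxorubicin. Its difference was -0.51 (SE 0.18, limma adjusted p = 0.35). MiR-155-5p, induced in activated lymphocytes and macrophages, was at 2.92, 2.69 and 3.00 against 2.13, 2.20 and 2.31, a difference of 0.66 (SE 0.16; limma, adjusted p = 0.16), with solvent pools at 3.56 and 2.93. Both separated the drugs, and did so again in 8 (miR-223-3p) and 7 (miR-155-5p) of the 10 other settings of signal, scaling and floor. Of the 2 probes of miR-155-5p, 0 were above background on all 6 arrays. Its difference was -0.03 in the lowest of the 23 alternatives.

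MiR-150-5p, the main miRNA of mature lymphocytes, differed by -0.10 (SE 0.35), with imatinib pool 1 highest at 7.72 and the other imatinib pools lowest at 6.43 and 6.53. MiR-142a-3p differed by 0.11 and miR-21a-5p by -0.28, with overlapping pools. The median of the 6 myeloid miRNAs was -0.18, of the 6 lymphocyte miRNAs 0.21 and of the 4 platelet miRNAs -0.19. The myeloid and platelet medians were above 0 without scaling (0.28 and 0.27), under scaling to miR-23a-3p with miR-24-3p (0.23 and 0.22) and with the percentile over all mouse miRNAs (0.03 and 0.02), and the myeloid median was 0.02 without imatinib pool 2. The lymphocyte median was -0.06 with normexp, -0.05 with a floor 4 times higher and -0.11 over miRNAs detected on all 6 arrays.

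**Figure D5:**
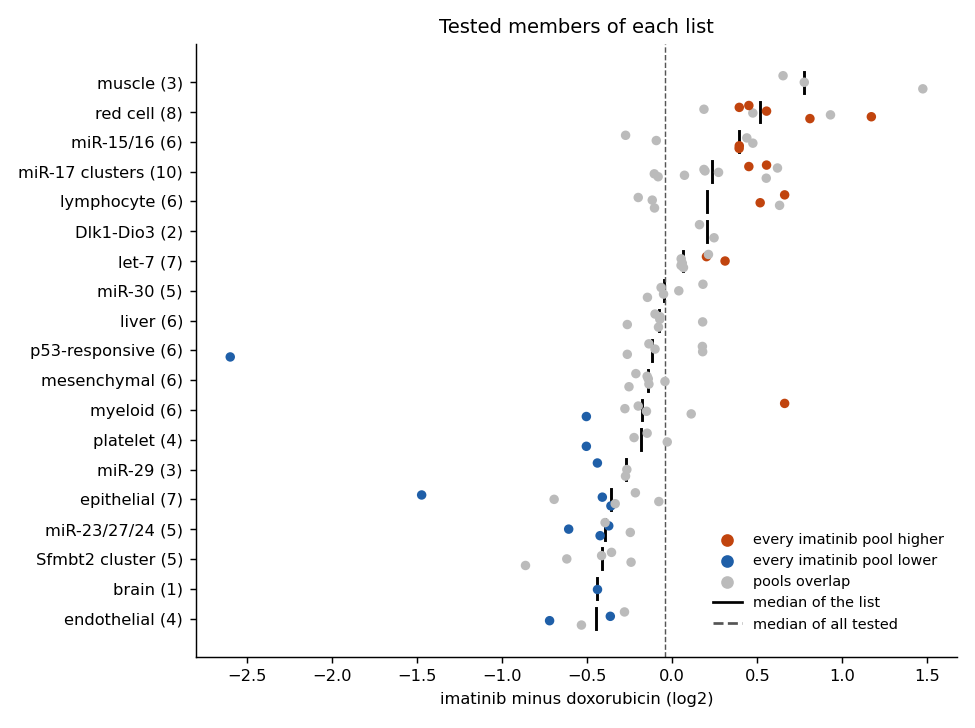
Difference between imatinib and doxorubicin plasma (log2) for each tested member of each list, with the number tested in brackets. Black bars are list medians, the dashed line is the median of all tested miRNAs (-0.04), and colours mark members higher (orange) or lower (blue) in every imatinib pool. Without scaling the medians of the endothelial, epithelial, miR-23/27/24 and miR-29 lists were 0.01, 0.09, 0.06 and 0.18; those of the red cell, miR-15/16 and miR-17 lists kept their sign in all alternatives.

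Few miRNAs of other lists were tested. Of the brain list only miR-128-3p was, at -0.44 with the drugs separated (0.01 without scaling). From the imprinted Dlk1-Dio3 cluster, miR-370-3p and miR-494-3p differed by 0.25 and 0.16 with overlapping pools. Of the Sfmbt2 cluster, 5 of 61 miRNAs were tested, with a median of -0.42 (0.04 without scaling) and 0 separating (19.3% of all tested).

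Several separating miRNAs lay outside these lists. MiR-6354 was at 4.40, 5.26 and 5.22 in the imatinib pools and 3.97, 3.84 and 3.46 in the doxorubicin pools. Its difference was 1.21 (SE 0.28, limma adjusted p = 0.14), with imatinib pool 1 the lowest of its group. Without that pool the difference was 1.53 (limma, adjusted p = 0.026). It passed in only 1 of the 6 fits with a pool left out, with an adjusted p in limma of up to 0.49 in the others. MiR-132-3p, a CREB-induced miRNA, differed by 0.78 and miR-186-5p by 0.70, and doxorubicin was below the solvent pools for both. For each, 0 of 2 probes were above background on all 6 arrays. Their lowest differences over the alternatives were -0.03 and -0.04. They separated the drugs in 5 and 6 of the 10 other settings of signal, scaling and floor. MiR-378b and miR-378d differed by 0.62 and 0.46, both highest in imatinib pool 2. MiR-139-5p differed by -0.53, while the other arm of its hairpin, miR-139-3p, differed by 0.38 with overlapping pools.

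Over shared seeds, 29 families had 2 or more tested members. All members were higher on average in 7 families, all were lower in 12 and 10 held both signs. The 5 tested miRNAs of the miR-17 seed, with miR-106b-5p and miR-93-5p, had a median of 0.45, and both families of the miR-200 seeds had medians of -0.34 and -0.53. Seed families were not recomputed under other scalings.

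MiRNAs numbered under 1000, mostly those described earliest, separated in 42 of 189 (22.2%), those from 1000 to 4999 in 5 of 47 (10.6%) and those from 5000 in 16 of 90 (17.8%), against 19.3% of all tested. The median GC content of the matched mature sequences was 50% in both separating sets and 56.5% in miRNAs whose pools overlapped, with a median length of 22 bases in each. These shares are descriptions of the miRNAs tested.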

How the data were processed

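The authors deposited scanner files of 1-colour Agilent miRNA arrays. The submitters' processing notes name Agilent Feature Extraction, version 11.5.1.1. Per the file headers they hold linear intensity values, with 1 total signal per miRNA, 0.1 for each miRNA not detected. The authors also deposited a table of log2 values, used as an alternative; how it was processed was not given in the sources used here. All arrays lay on 1 slide, in 2 rows; no spot was saturated.

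Total signals were scaled to each array's 75th percentile over the 296 mouse miRNAs detected on all 6 drug arrays, floored at 1.79 (percentile 1 of the detected signals of an array, median of all arrays) and put on the log2 scale. Tests were 2-sided, with limma's lmFit and eBayes (version 3.58.1, R 4.3.3; 4 residual and 3.04 prior degrees of freedom), with Benjamini-Hochberg adjustment. The limma fit was also run on simulated log2 values, which did not cover the scaling, the filter, the floor or the overlap of pools. Precision is limited by 3 pools a drug.

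The members and lists were chosen with earlier results of these data known. Named were: miRNAs past the threshold; per direction, the 15 largest differences among those detected on all 6 arrays without overlap; the first 4 tested members of each list; miRNAs detected on all arrays of 1 drug and none of the other; and the other arm of hairpins named by the first and second parts. MiR-92a-3p, miR-93-5p, miR-106b-5p, miR-107-3p, miR-203-3p, miR-497a-5p and miR-718 were added as members of a described list or cluster. Alternatives covered signal, background, scaling, filter, floor, variance model, blocks, the solvent arrays, the authors' table and leaving out each pool. Figures used matplotlib 3.10.9.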

Additional observations from a re-analysis of the deposited data

How the results depend on the processing

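Against 3 miRNAs past the threshold, the count was 6 with background-subtracted spot signals, 5 each with normexp, with the 75th percentile over all mouse miRNAs, with a trended prior and with all 8 arrays, 8 with scaling to miR-23a-3p with miR-24-3p, 1 with no filter, 2 over miRNAs detected on all 6 arrays and 10 with a floor 4 times lower. It was 2 to 24 when 1 pool was left out, with 24 of 365 tested without imatinib pool 1. Against 63 miRNAs without overlap, there were 40 without scaling, 104 with scaling to miR-23a-3p with miR-24-3p and 68 to 191 with 1 pool left out. By construction a lower floor spreads values at the floor, fewer values have to separate with a pool left out, and no filter adds undetected miRNAs. The cause of these changes, and the part of these steps in them, was not tested. The red cell index differed by 0.32 with quantile normalization and 0.30 in the authors' deposited table, and by 1.05 to 1.38 with 1 pool left out. The difference in detected miRNAs was 20 to 60 with 1 pool left out.

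Of 2106 values of named miRNAs under the alternatives, 1889 kept direction and side of the threshold, 10 lost the threshold, 39 gained it and 0 of those called changed sign. Another 168, called in neither fit, changed sign, 39 of them without scaling. Most miRNAs on each array were undetected and hold 0.1, so the percentile over all of them was taken from background-subtracted spot signals. Normexp used the median spot signal with an offset of 50, which draws weak signals together on the log2 scale.

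The labels do not say that the replicate numbers pair pools, so the numbers were not taken as pairs. Deviations from the group mean correlated at 0.15, -0.13 and 0.25 between same-numbered pools. Between differently numbered pools they correlated at -0.44 to 0.30. So few values cannot show whether pools pair. With the replicate number as a block, 7 miRNAs passed, 5 higher and 2 lower. With the slide row as a block 3 passed.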
